A study of Mus musculus with 10 samples.

Results

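Vascular endothelial growth factors (VEGFs) act through a small set of genes, and 9 of them were followed here in cultures of primary lymphatic endothelium from the mouse (lymphatic endothelial cells, LECs, form the wall of lymph vessels). They were the receptors Kdr, Flt1 and Flt4, the coreceptors Nrp1 and Nrp2, and the ligands Vegfa, Vegfb, Vegfc and Pgf. The genes were taken by symbol from a deposited table of 16251 genes. The rule itself reads no measured value, but the set was drawn up with earlier results of these data known. Of the 9 genes, 8 were among the 12161 that had enough reads to be tested, and Vegfc was not. Kdr, which encodes VEGFR2, was the target of the knockdown.

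The study compared 5 libraries labelled control with 5 labelled Vegfr2 siRNA. Cells of the second group had received duplex siRNA, a short double-stranded RNA that directs degradation of a matching transcript, at 50 nM, and RNA was taken 48 h afterwards. All 10 samples carry the treatment tag siRNA knockdown, and the control samples have Control as their genotype. Whether the control cells had received another siRNA, how many duplexes were used and whether the replicates were separate cultures is not given in the sources used here. The p-values therefore describe the spread among these samples, which may be technical, and an effect of transfection cannot be told apart from one of the target where controls were not transfected. No batch is named in the labels.

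VEGFR2 is the main signalling receptor for VEGF-A in blood vessel endothelium and also binds processed VEGF-C and VEGF-D. VEGFR3, the product of Flt4, is the receptor through which VEGF-C drives growth of lymphatic vessels, while VEGFR1, the product of Flt1, binds VEGF-A tightly and acts largely as a decoy, in part as a soluble isoform. The neuropilins lack a kinase and hold ligands next to the receptors: NRP1 partners mostly with VEGFR2, and NRP2 with VEGFR3 in lymphatic endothelium. VEGF-B and placental growth factor (PlGF, from Pgf) bind VEGFR1 and not VEGFR2.

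Depth was even, at 17946483 to 18239260 estimated reads per library, and the variation between libraries of a group was small (biological coefficient of variation 2.85%). All 10 lymphatic endothelial markers on the list used here were measured. Their summed level was 16882 to 18489 CPM (counts per 1000000 reads, on TMM-scaled library sizes) in control and 11461 to 12442 CPM in siRNA libraries, and this list includes Flt4. Of these markers 9 fell, while Pdpn rose from a mean of 11.2 to 19.5 CPM. Over all tested genes, 35.2% were lower and 36.1% higher at an adjusted p under 0.05. The 6 pan-endothelial markers summed to 5228 to 5453 CPM in control and 4318 to 4528 CPM in siRNA libraries. The 5 fibroblast markers summed to at most 1.10 CPM in control and 1.59 CPM in siRNA libraries. The 6 mural cell markers summed to 12.2 to 16.2 and 11.6 to 13.7 CPM, and among them Acta2 rose while Notch3 and Pdgfrb fell. Of 6 blood cell markers, 3 were measured and summed to 41.9 to 49.8 CPM in control and 30.0 to 40.4 CPM in siRNA libraries, with Csf1r and Itgam under 1 CPM on average in both groups. The 4 measured epithelial markers of 6 summed to 1.22 to 2.46 and 7.68 to 8.73 CPM, through Krt18. The part of these shifts in the results that follow was not tested.

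Of the 8 tested genes, 4 fell (Kdr, Flt4, Nrp2 and Nrp1) and 1 rose (Vegfa) at an adjusted p under 0.05, and 3 were not called (Flt1, Vegfb and Pgf). Most of the transcriptome moved in this comparison: 71.3% of tested genes were called, 35.2% lower and 36.1% higher. The number of called genes here, 5 of 8, was therefore near the background. The median log2 fold change was −0.41 over the 8 genes and −0.02 over the 7 without the target, against −0.0019 over all tested genes. The control and siRNA libraries did not overlap for 5 of the 8, against 57.0% of all tested genes. In RNA from whole cultures, fewer cells of a type and less RNA per cell cannot be told apart.

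**Figure D1:**
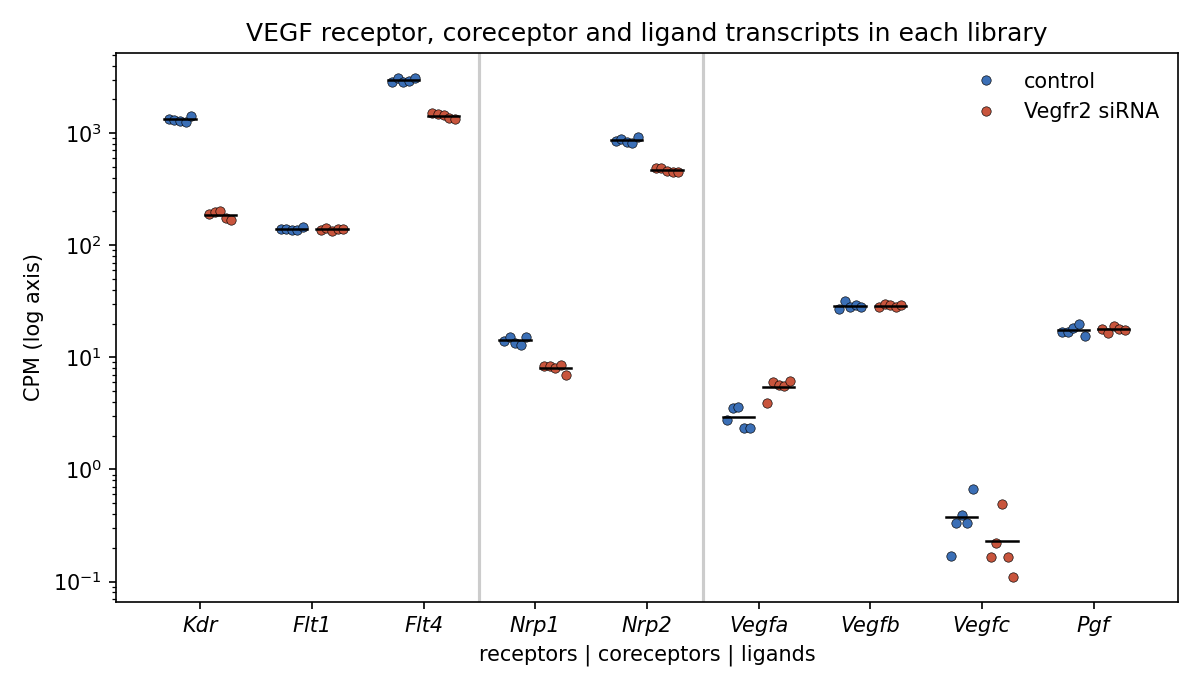
Level of each of the 9 genes in every library, in CPM on a log axis, with control and Vegfr2 siRNA libraries side by side. Points are libraries and bars are group means. The siRNA libraries lie below the controls without overlap for Kdr, Flt4, Nrp2 and Nrp1 and above them for Vegfa.

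Among the receptors, the target itself fell the most. Kdr (Entrez gene 16542, GRCm38.p6 chromosome 5, 75932827 to 75979072, minus strand) stood between 1259 and 1431 CPM in the control libraries and between 167 and 200.5 CPM in the siRNA libraries. That is a mean of 14.0% of the control level, and the groups were far apart. Only 1 other tested gene had a log2 fold change at or under that of Kdr, −2.83 (SE 0.059, adjusted p = 3.14e-11). The transcript was still present: per length, Kdr made up 10.1% of the receptor transcripts of siRNA cells, against 5.03% for Flt1.

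Flt4 (Entrez gene 14257, chromosome 11, 49609679 to 49652739, plus strand) was the receptor gene with the highest level, and it fell as well. In control replicates 1 to 5 it stood at 2866, 3099.8, 2862, 2932 and 3077 CPM. In the siRNA replicates it stood at 1501, 1464, 1458, 1355 and 1341 CPM. The highest siRNA library was thus well under the lowest control library, and the mean fell to 48.0% of control (log2 fold change −1.06, SE 0.031, 95% interval −1.12 to −0.99, adjusted p = 4.10e-19). Among all tested genes, 279 fell by at least as much, Flt4 included.

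Flt1 (Entrez gene 14254, chromosome 5, 147561604 to 147726438, minus strand) kept its level within narrow limits. The control libraries stood at 138, 141, 138, 137 and 144 CPM and the siRNA libraries at 137, 141, 133, 139.7 and 139 CPM, with the groups overlapping. Its log2 fold change came to −0.02 (adjusted p = 0.598, SE 0.026), and the 95% interval of −0.07 to 0.04 bounds the difference in either direction. Counts per gene do not separate the soluble from the membrane-bound form of VEGFR1.

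Kdr and Flt1 are related in sequence, and a stretch that both share is shown. Among the genes here, Flt1 has the longest run of identical bases to the target. The run has 20 bases and lies in the coding part of exon 17 of 30 in the transcript models used for both genes (GENCODE, GRCm38). It begins at base 2748 of the 5924-base Kdr transcript. In the lines that follow, capitals mark the shared run and lower case the 10 bases on each side, 5′ to 3′ on the transcript strand.
Kdr, chr5:75952288-75952327 (minus strand): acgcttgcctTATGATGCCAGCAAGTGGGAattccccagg
Flt1, chr5:147599555-147599594 (minus strand): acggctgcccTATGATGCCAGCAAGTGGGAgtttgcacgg
Of 11848 tested genes with a transcript model, 0.397% share a run at least as long with Kdr. The longest run was 16 bases in Nrp2, which 4.19% of genes reach, and 14 in both Flt4 and Nrp1, which 20.7% of genes reach. The siRNA sequence is not given in the sources used here, so its match to any of these transcripts was not examined.

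Both coreceptor genes fell, by similar proportions and from very different levels. Nrp2 (Entrez gene 18187, chromosome 1, 62703317 to 62818692, plus strand) was at 857, 884, 827, 816 and 923 CPM in control replicates 1 to 5. It was at 484, 483, 460.1, 447 and 446 CPM in the siRNA replicates, and every siRNA library was under every control library. The mean fell to 53.9% of control (log2 fold change −0.89, SE 0.032, adjusted p = 1.37e-17), and 443 tested genes fell by as much or more.

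Nrp1 (Entrez gene 18186, chromosome 8, 128358591 to 128505476, plus strand) was a minor transcript in these cells. It stood at 13.9, 15.3, 13.3, 12.9 and 15.3 CPM in the control replicates. In the siRNA replicates it stood at 8.38, 8.28, 8.07, 8.50 and 6.99 CPM, again without overlap. The mean fell to 57.0% of control, with a log2 fold change of −0.81 (SE 0.073, 95% interval −0.96 to −0.66, adjusted p = 3.41e-13). Of its exon bases, 0.818% are shared with the microRNA gene Mir1903.

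Among the ligand genes, Vegfa alone was called. Vegfa (Entrez gene 22339, chromosome 17, 46016993 to 46032377, minus strand), which encodes the main ligand of VEGFR2, was at 2.74, 3.50, 3.61, 2.32 and 2.36 CPM in the control replicates. It reached 3.94, 5.98, 5.71, 5.54 and 6.16 CPM in the siRNA replicates. The lowest siRNA library, replicate 1, lay closer to the highest control library than to the other siRNA libraries. The mean rose from 2.91 ± 0.618 to 5.47 ± 0.885 CPM (SD, n = 5 each), a log2 fold change of 0.91 (SE 0.130, 95% interval 0.64 to 1.17, adjusted p = 1.34e-07). These are small numbers of reads, from 42 to 112 per library. Without siRNA replicate 1 the log2 fold change was 1.01, with the same call. Vegfa has a mean under 5 CPM and was not tested under a minimum at that level.

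Vegfb (Entrez gene 22340, chromosome 19, 6982472 to 6987651, minus strand) was the ligand gene of highest level, at 26.7 to 32 CPM in control and 27.8 to 29.6 CPM in siRNA libraries. The siRNA range lay inside the control range, and the log2 fold change of −0.0048 had a 95% interval of −0.10 to 0.09 (adjusted p = 0.934). Pgf (Entrez gene 18654, chromosome 12, 85166637 to 85177785, minus strand) stood at 15.5 to 19.7 CPM in control and 16.3 to 19.0 CPM in siRNA libraries. Its log2 fold change was 0.03 (95% interval −0.09 to 0.15, adjusted p = 0.696). A change in either ligand gene larger than these intervals was not seen, while smaller ones cannot be told from the spread.

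Vegfc (Entrez gene 22341, chromosome 8, 54077532 to 54186454, plus strand), which encodes the growth factor for VEGFR3, was hardly detected. The control replicates held 3, 6, 7, 6 and 12 counts and the siRNA replicates 3, 4, 9, 3 and 2 counts. After scaling, the ratio of siRNA to control was 0.609 with an exact 95% interval of 0.336 to 1.08 that covers counting error only. A difference was not detectable at this depth. Vegfd, the other ligand of VEGFR3, had 93 counts in all control and 82 in all siRNA libraries together, a ratio of 0.869 (0.638 to 1.18 by the same method), and its adjusted p was 0.436.

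Exact permutation tests of each gene's log2 CPM, two-sided with 5 libraries against 5, gave p = 0.00794 for Kdr, Flt4, Nrp1, Nrp2 and Vegfa, the smallest value that this number of libraries allows. The same exact test gave p = 0.468 for Flt1, 0.952 for Vegfb and 0.643 for Pgf. The fold changes thus fell into a wide range, from Kdr at −2.83 to Vegfa at 0.91, with Flt1, Vegfb and Pgf near 0.

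**Figure D2:**
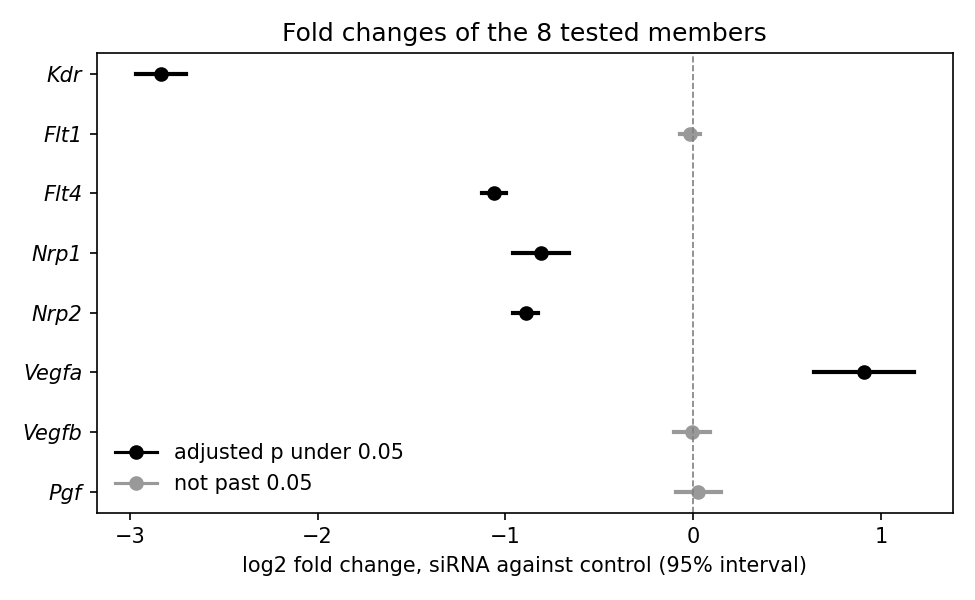
Log2 fold change of siRNA against control for the 8 tested genes, with 95% intervals as bars, on a linear axis. Kdr lies at −2.83, Flt4, Nrp2 and Nrp1 between −1.06 and −0.81, Vegfa at 0.91, and the intervals of Flt1, Vegfb and Pgf include 0.

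Levels of different genes can be compared only per length, so CPM was divided by the kilobases of exon of each gene. On this scale, in control cells, Flt4 came first at 360.5 ± 13.9, followed by Kdr at 147 ± 7.34 and Nrp2 at 72.7 ± 3.67 CPM per kilobase (SD, n = 5). Vegfb at 18, Flt1 at 10.3 and Pgf at 6.0 CPM per kilobase formed the middle of the order. Nrp1 at 1.44, Vegfa at 0.678 and Vegfc at 0.155 CPM per kilobase closed it. Control LECs therefore held far more transcript of VEGFR3 and NRP2 than of VEGFR1 and NRP1, and the libraries of neighbouring genes in this order overlapped in 0 of 8 pairs. Flt4 exceeded 99.6% of tested genes with a known length, Kdr 98.0% and Nrp2 95%.

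After the siRNA, Flt4 at 173 ± 8.67 and Nrp2 at 39.2 ± 1.58 CPM per kilobase came first and second. Kdr followed at 20.5 ± 1.64 CPM per kilobase, and its lowest library (18.448) was just under the highest of Vegfb (18.455), whose mean was 17.9. With the longest transcript as the length these libraries did not overlap, at a lowest value of 28.1 for Kdr and a highest of 23.1 for Vegfb. With all exon bases as the length, Kdr in siRNA cells exceeded 77.2% of tested genes, whereas Flt4 exceeded 98.4% and Nrp2 89.3%. At the bottom, Vegfa at 1.28 CPM per kilobase stood above Nrp1 at 0.822, an order that turned when the longest transcript was used as the length in place of all exon bases.

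Summed per length, the 3 receptor genes fell from 517 to 204 CPM per kilobase, or 39.4% of control, and the 2 coreceptor genes from 74.2 to 40.0, or 54.0%. The 4 ligand genes summed to 24.8 and 25.4 CPM per kilobase, 102% of control. Although Kdr was the target, Flt4 accounted for more of the loss of receptor transcript: of the 314 CPM per kilobase lost, 59.8% was Flt4, 40.2% was Kdr and 0.0365% was Flt1. With the longest transcript as the length, the parts were 56.2% for Flt4 and 43.7% for Kdr.

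The makeup of the receptor transcripts changed accordingly. Kdr made up 29.1%, 27.4%, 28.4%, 27.6% and 29.2% of the length-corrected receptor transcripts in control replicates 1 to 5, and 9.89%, 10.4%, 10.6%, 9.89% and 9.63% in the siRNA replicates. Flt4 went from 69.7% ± 0.834 to 84.9% ± 0.294 (SD, n = 5), a gain in share although its own level fell. Flt1 went from 2.00% ± 0.0386 to 5.03% ± 0.313 at a level that was not called. For each of the 3 shares the groups did not overlap, and the two-sided exact permutation test gave p = 0.00794 (also 0.00794 after adjustment over the 3 shares, which sum to 100% and are not independent).

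**Figure D3:**
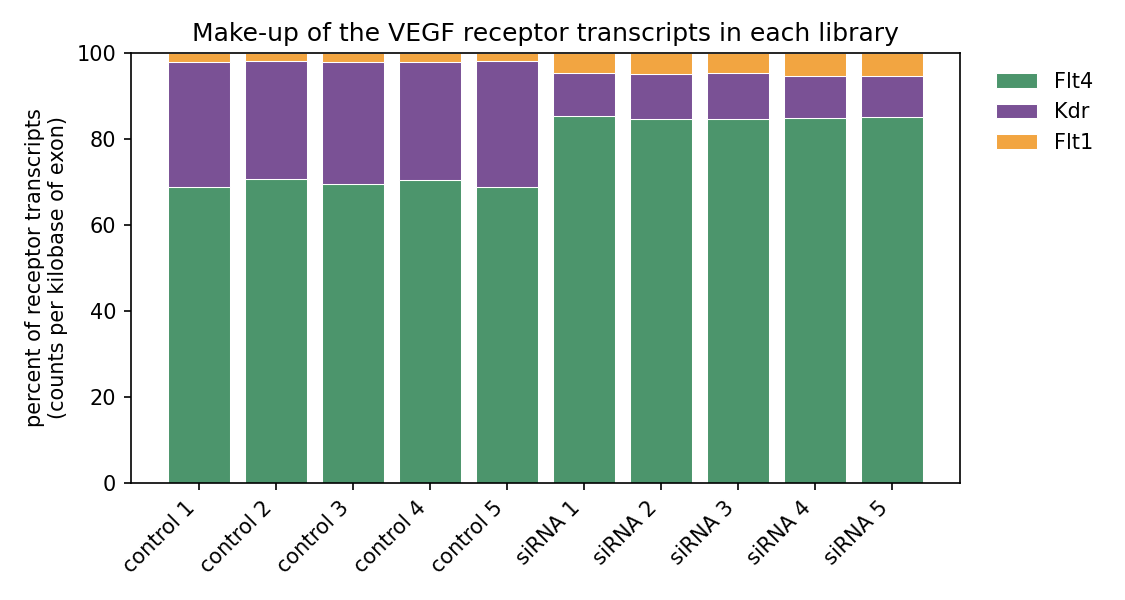
Share of Kdr, Flt1 and Flt4 in the length-corrected receptor transcripts of each library, in percent, with control libraries on the left and siRNA libraries on the right. Kdr takes 27.4% to 29.2% in control and 9.63% to 10.6% in siRNA libraries, and Flt4 takes the largest share in all 10.

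Ratios of CPM within a library do not depend on how libraries are scaled, and 6 of them were compared between the groups. Kdr to Flt1 went from 9.48 ± 0.301 to 1.35 ± 0.125 and Kdr to Flt4 from 0.446 ± 0.0183 to 0.130 ± 0.00545 (SD, n = 5). Flt4 to Flt1 went from 21.3 ± 0.536 to 10.3 ± 0.645, so the ratio of the 2 receptors that were not targeted changed by −1.04 on the log2 scale (95% interval −1.15 to −0.94) and their levels came closer together. These intervals come from inverting the exact permutation test.

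The receptor and coreceptor of lymphatic vessels, VEGFR3 and NRP2, did not fall by quite the same factor. The ratio of Flt4 to Nrp2 was 3.34 to 3.59 in control and 3.0 to 3.17 in siRNA libraries, a change of −0.17 on the log2 scale (95% interval −0.23 to −0.11). For Nrp2 to Nrp1 the ratio was 61.1 ± 2.16 in control and 57.9 ± 4.02 in siRNA libraries, a change of −0.08 with an interval of −0.19 to 0.04 (exact permutation p = 0.159). A difference between the falls of the 2 neuropilin genes was thus not shown with all libraries, but the value turned on single siRNA libraries. It was −0.11 and was called without replicate 5 (exact permutation, adjusted p = 0.0317), and −0.04 without replicate 4 (adjusted p = 0.317). Vegfa to Vegfb rose from 0.101 to 0.190, a change of 0.92 (0.50 to 1.33). All but the neuropilin ratio had an exact permutation p of 0.00794, which is 0.00952 after adjustment over the 6 ratios. Several of these ratios share a gene and are not independent, and they restate differences between the fold changes given above.

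**Figure D4:**
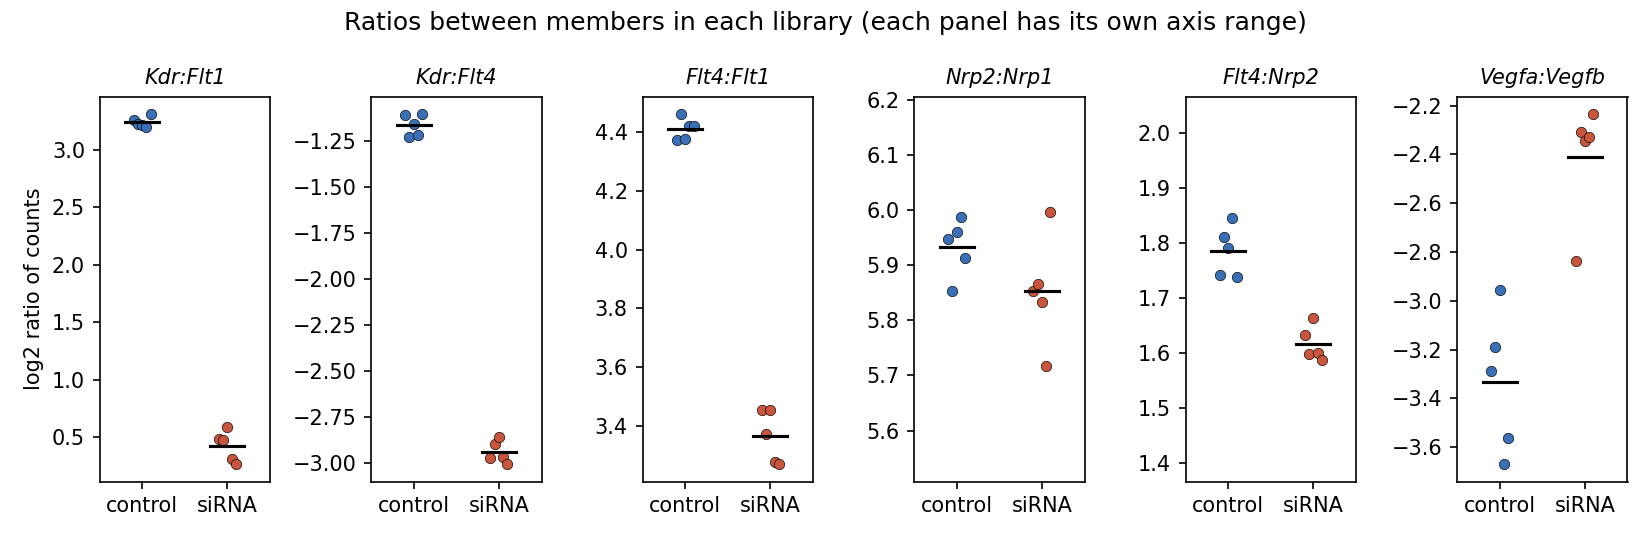
Ratio of CPM between pairs of the genes in each library, on a log2 axis, for the 6 pairs compared. Points are libraries and bars are means. Control and siRNA libraries are apart in 5 of the 6 pairs and overlap for Nrp2 to Nrp1.

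Sequences around the genes that fell are shown for what the falling genes share and where they differ. The first is a 7-base word, GTAAAGA, which came out of an earlier search of these data for words linked to low fold changes, so that its presence here is a description and supports nothing. Of tested genes with an annotated 3′ UTR of at least 50 bases, 1420 carry it (12.1%). Their median log2 fold change was −0.15 (53.2% called lower) against 0.02 (32.9% called lower) for the others. The word was picked for such a difference in these data, so these values are no separate result. Carriers and others were not matched for 3′ UTR length. Among the genes followed here it was found in Flt4, Nrp2, Flt1 and Kdr. The sites are given 5′ to 3′ on the transcript strand (GENCODE, GRCm38), with the word in capitals.
Flt4, chr11:49651786-49651814 (plus strand): cgggcgctgttGTAAAGAatttactcatc
Nrp2, chr1:62818194-62818222 (plus strand): tgttgtaagatGTAAAGAaagacagctga
Flt1, longer transcript, chr5:147562255-147562283 (minus strand): ttcccacaaaaGTAAAGAaaagctatcgg
Flt1, shorter transcript, chr5:147636135-147636163 (minus strand): ctgatgtttttGTAAAGAtgtcaacattg
Kdr, chr5:75932827-75932846 (minus strand): acgtattctgaGTAAAGAga
The Nrp2 site is in 4 of its 6 coding transcripts, and the Kdr site lies at the very end of the annotated transcript. Presence of the word did not follow the calls gene by gene. Flt1 has a copy in each of its 2 coding transcripts and was not called, and Nrp1 has none and fell by 0.81 on the log2 scale. The annotated 3′ UTR of Nrp1 has 549 bases in 1 coding transcript. Those with a site have 1596 bases in Kdr, 1656 in Flt4 and 3058 in Nrp2. In Flt1 they have 2616 bases in the longer transcript and 3971 in the shorter. A part of 3′ UTR length in where the word was found was not tested. No site was found in the 3′ UTRs of Vegfa, Vegfb, Vegfc or Pgf. The longest of these have 1865 bases in Vegfa, 417 in Vegfb, 1028 in Vegfc and 776 in Pgf.

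The promoters of the 3 other genes that fell, Flt4, Nrp2 and Nrp1, are given beside that of Flt1, a receptor gene that was not called. Each is the 250 bases before the start that the RefSeq promoter table gives for the gene (GRCm38.p6), 5′ to 3′ on the gene's strand, with the ETS core GGAA (TTCC on the other strand) in capitals. For Nrp1, Flt1 and Kdr that start lies inside the gene's full span as given above, so these windows are within the annotated gene. ETS factors such as ERG, FLI1 and ETS1 are known regulators of endothelial genes.
Flt4, chr11:49609429-49609678 (plus strand): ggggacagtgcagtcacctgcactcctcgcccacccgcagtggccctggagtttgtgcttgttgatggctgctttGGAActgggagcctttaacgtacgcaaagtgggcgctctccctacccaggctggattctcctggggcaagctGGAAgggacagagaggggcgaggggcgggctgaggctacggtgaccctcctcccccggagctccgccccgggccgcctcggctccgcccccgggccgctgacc
Nrp2, chr1:62703067-62703316 (plus strand): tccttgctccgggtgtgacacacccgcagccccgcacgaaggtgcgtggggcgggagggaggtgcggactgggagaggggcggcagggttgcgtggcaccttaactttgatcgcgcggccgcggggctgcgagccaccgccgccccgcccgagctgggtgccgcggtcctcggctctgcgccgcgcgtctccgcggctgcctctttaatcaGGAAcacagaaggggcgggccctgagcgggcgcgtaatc
Nrp1, chr8:128358823-128359072 (plus strand): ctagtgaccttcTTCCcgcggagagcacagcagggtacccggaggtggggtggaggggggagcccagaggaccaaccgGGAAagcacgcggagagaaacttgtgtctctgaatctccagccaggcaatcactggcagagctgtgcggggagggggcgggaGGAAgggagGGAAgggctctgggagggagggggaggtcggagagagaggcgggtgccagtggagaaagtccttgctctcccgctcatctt
Flt1, chr5:147726012-147726261 (minus strand): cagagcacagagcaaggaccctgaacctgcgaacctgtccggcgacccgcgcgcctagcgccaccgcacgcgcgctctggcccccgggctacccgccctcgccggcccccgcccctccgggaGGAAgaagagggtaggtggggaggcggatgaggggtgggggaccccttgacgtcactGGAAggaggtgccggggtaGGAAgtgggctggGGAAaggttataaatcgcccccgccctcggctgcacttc
The core occurs 2 times in the Flt4 window, once in that of Nrp2, and 4 times in those of Nrp1, Flt1 and Kdr. Of 32851 RefSeq windows of this length, 93.4% hold at least 1 copy, with a median of 3. The GC box GGGCGG, counted on both strands, occurs 5 times in the Nrp2 window, 3 times in those of Flt4 and Flt1, 2 times in that of Kdr and once in that of Nrp1, and 32.7% of all windows have it. The E-box CANNTG occurs once in the Kdr and Flt4 windows and was not found in those of Nrp1, Nrp2 and Flt1, where 66.2% of all windows have it. The hypoxia response core ACGTG, the GATA motif AGATAA and the AP-1 motif TGANTCA were not found in the windows of these 5 genes, where 16.6%, 9.99% and 6.75% of all windows have them. The windows of all 9 genes were richer in G and C (59.2% to 76.4%) than the median window (52.4%). None of these 6 motifs was in the windows of all 4 genes that fell and missing from that of Flt1. A part of any motif in the falls was not tested.

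Transcription factors known to act on VEGF receptor genes or to specify lymphatic endothelium were next described as a list. Of 16 tested members, 11 fell and 5 rose, where 35.2% of all tested genes were lower and 36.1% higher, and the median log2 fold change was −0.23. The hypoxia-inducible factor gene Epas1 fell by 1.28 on the log2 scale, from 54.1 ± 5.33 to 22.3 ± 2.61 CPM (SD, n = 5). Foxc2, a regulator of lymphatic valves, fell by 0.51 and the ETS factor gene Erg by 0.48. The rises were smaller than these falls: Hhex by 0.25, Hif1a by 0.17, Gata2 by 0.16, Sox7 by 0.14 and Tal1 by 0.13. Sox18 (−0.46), Fli1 (−0.36), Ets1 (−0.31), Prox1 (−0.26) and Ets2 (−0.10) were among the others that fell. They were named in addition after their values were seen.

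Genes that relay signals from the receptors were called about as often as genes in general. Of 30 tested members of the list, 10 rose, 11 fell and 9 were not called, near the 71.3% called over all tested genes, and the median log2 fold change was −0.0016, next to −0.0019 over all genes. The protein kinase C genes Prkcb (1.15, from 10.1 ± 1.72 to 22.4 ± 0.820 CPM; SD, n = 5) and Prkca (0.63) rose, as did the kinase gene Akt1 (0.36). The Src family kinase gene Yes1 (−0.48), the docking protein gene Gab1 (−0.41) and Map2k1 (−0.41), which encodes the ERK kinase MEK1, fell.

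The genes for receptor trafficking and turnover had 9 members up, 9 down and 5 not called of 23 tested, again close to the 71.3% called over all genes, with a median of −0.02. Gipc1, an adaptor that binds the tail of NRP1, rose by 0.60, the integrin gene Itgb3 by 0.43 and the ubiquitin ligase gene Cbl by 0.37. Kif13b, a kinesin reported to carry VEGFR2 to the surface, fell by 0.61, the endocytic adaptor gene Dab2 by 0.50 and Ptprb, the endothelial phosphatase VE-PTP, by 0.38. Ctsd (−0.42) and Pcsk7 (−0.28), 2 of the 5 tested genes of VEGF-C and VEGF-D maturation, fell, and 3 were not called (Vegfd, Adamts14 and Furin). Ccbe1 and Adamts3, whose products activate VEGF-C, were under the filter with totals of 29 and 4 counts in control and of 38 and 2 in siRNA libraries.

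Neuropilins also serve class 3 semaphorins, which signal through plexins. Of 10 tested genes of this list 5 rose, 3 fell and 2 were not called (median 0.11), also not far from the 71.3% called over all genes. The plexin gene Plxna1 rose from 40.7 ± 1.53 to 77.6 ± 4.14 CPM (SD, n = 5; log2 fold change 0.93, SE 0.038) and Plxna3 by 0.86 on the log2 scale, while the ligand gene Sema3a rose by 0.30. Sema3g (−0.91), Sema3d (−0.33) and Sema3f (−0.30) fell. Plxna1 and Plxna3 thus rose where both neuropilin genes fell. Among receptor tyrosine kinases related to the VEGF receptors, Kit rose by 0.53 and Pdgfrb fell by 0.41, and Pdgfra, Csf1r and Flt3 were under the filter.

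**Figure D5:**
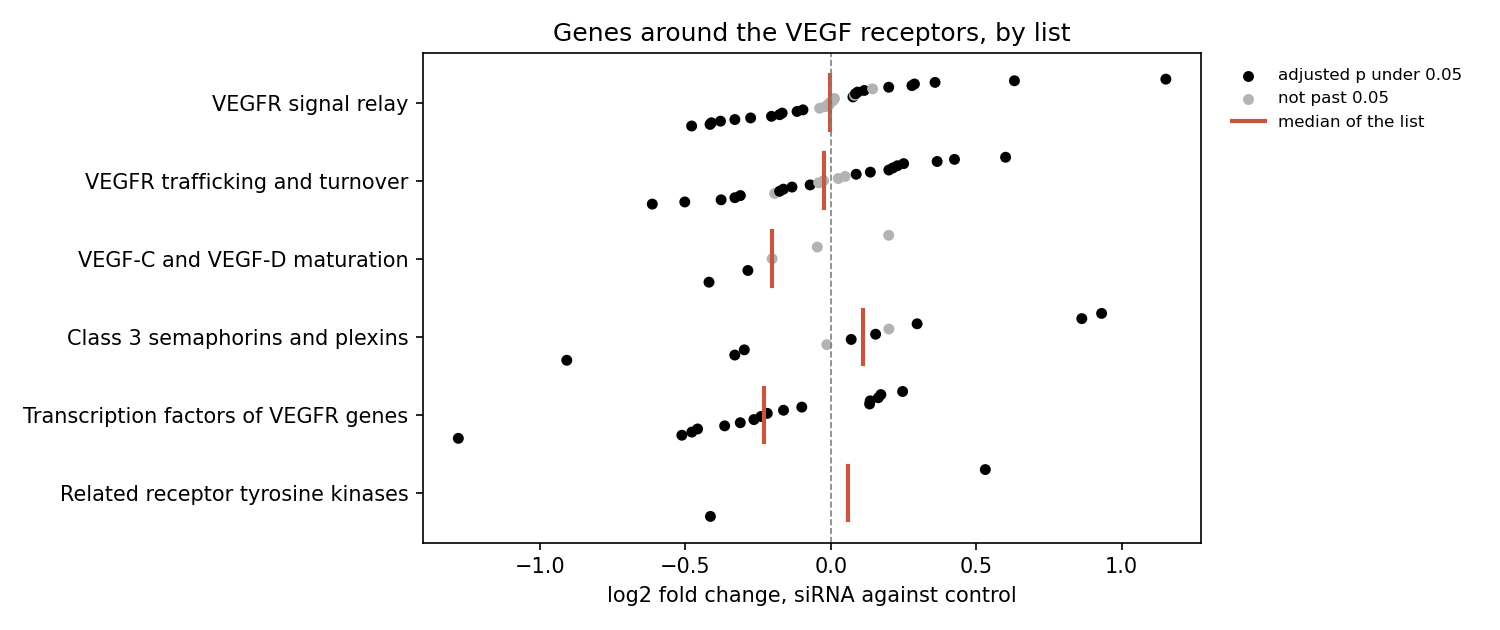
Log2 fold change of siRNA against control for each tested gene of 6 lists around the VEGF receptors, with called genes in black, others in grey and the list's median as a red line. The medians run from −0.23 for the transcription factors to 0.11 for semaphorins and plexins, and every list has values on both sides of 0.

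The genes whose profiles were most like those of the 4 genes that fell were found by the root mean square difference of centred log2 CPM over the 10 libraries, among 10079 genes with a mean of at least 5 CPM. Since the groups differ, likeness here mostly means a fold change of like size. For Kdr they were Kcnn3 (0.145), Itgb4 (0.145) and Olfml2a (0.176), with log2 fold changes of −2.67, −2.69 and −2.96. For Flt4 they included Ddit4 (0.0483) and Ahr (0.0485), with −1.03 and −1.08. For Nrp2 they were Pcdh12 (0.0389), Lss (0.0443) and Tgm2 (0.0467), and for Nrp1 they were Timp2 (0.0536), Tbc1d30 (0.0561) and Adcy4 (0.0589). Kdr had the most distant neighbours of the 4, since few genes fell as far.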

How the data were processed

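Poly(A) RNA of 10 samples was sequenced, per the labels' protocols. The authors deposited 1 estimated count (expected count) per gene and library, not normalized; the submitters' processing notes list RSEM 1.3.1, Bowtie2 2.4.5, HISAT2 2.2.1 and, as the build, GRCm38.p6. Their annotation, strand setting and the tools' roles are not given in the sources read. All 90 values of the 9 genes were whole numbers. Sample titles gave the groups, column names gave the samples, and 0 columns were left unmapped.

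After rounding of the expected counts, groups were compared with edgeR 4.0.16 (R 4.3.3; filterByExpr at a minimum count of 10, TMM factors, robust quasi-likelihood F test with group as the only term, Benjamini-Hochberg adjustment over 12161 genes, threshold 0.05). All adjusted p-values of single genes are from this fit, and 4090 genes were under the filter. Rise and fall are written only of genes past the threshold. The edgeR fit alone was tried on simulated data in which few genes changed. That trial does not cover a comparison in which most genes moved. Ratios and receptor shares were compared with two-sided exact permutation tests, adjusted over the 6 ratios and the 3 shares, in Python 3.11.15 with scipy 1.17.1. Lengths, 3′ UTRs and transcripts were from GENCODE M21 (GRCm38), with a length for 97.8% of tested genes. Promoters and coordinates were from RefSeq tables (GRCm38.p6).

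The 9 genes, the gene lists and the tests were chosen with earlier results of these data known. From each pathway list the text names up to 3 called genes with the largest rise and up to 3 with the largest fall, at a mean of at least 1 CPM, those needed for small counts, and for each of 4 genes the 3 most alike profiles among genes of at least 5 CPM, of which 1 is not reported here. Alternatives were DESeq2 1.42.0, limma-voom (limma 3.58.1), upper-quartile and RLE factors, a mean of at least 5 CPM, no filter, another gene length, a replicate block, and each library left out.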

Additional observations from a re-analysis of the deposited data

Results flagged for a closer look

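In 3 of the 18 groups of 5 libraries examined (9 genes in each group), the library at one end stood apart from the other 4 by more than Dixon's 95% critical value allows, which chance gives in about 1 of 20 groups. Nrp1 in siRNA replicate 5 was at 6.99 CPM, below the others by 0.713 of the group's range. Without that library the log2 fold change of Nrp1 was −0.76 in place of −0.81. Vegfa in siRNA replicate 1 was at 3.94 CPM, lower than the others by 0.719 of the range, and it still exceeded every control library. Vegfc in siRNA replicate 3 was at 0.494 CPM, higher than the others by 0.715 of the range, and this value rests on 9 counts.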

How the results depend on the processing

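The count of called genes ran from 7753 at a mean of at least 5 CPM to 8956 without a filter, with 8306 by DESeq2, 8537 with the replicate block and 8437 to 8549 on leaving out single libraries. Of the genes followed here 5 were called in each of these, except 4 at a mean of at least 5 CPM, where Vegfa was not tested. Kdr, Flt4, Nrp1, Nrp2 and Vegfa kept their direction and call in every fit that tested them. Upper-quartile factors gave 4175 genes higher and 4530 lower, against 4391 and 4277. Vegfb, not called anywhere, changed sign without a filter (0.0018) and when single libraries were left out (−0.0287 to 0.0377), as did Pgf when libraries were left out (−0.0093 to 0.0783). Same-numbered libraries did not vary together (correlations from −0.0745 to 0.0198; 0 of 10 correlated best with their own number). With the replicate block, a paired exact sign-flip test on 5 pairs cannot go below p = 0.0625, so the unchanged ratio differences of −2.82 (Kdr to Flt1), −1.78 (Kdr to Flt4), −1.04 (Flt4 to Flt1), −0.17 (Flt4 to Nrp2) and 0.92 (Vegfa to Vegfb) had an adjusted p of 0.075. The share differences of −18.2 (Kdr), 3.03 (Flt1) and 15.2 percentage points (Flt4) had one of 0.0625. Leaving out single libraries put Nrp2 to Nrp1 between −0.115 and −0.0449, with a call at −0.115 without siRNA replicate 5 (exact permutation, adjusted p = 0.0317). Levels per kilobase moved when the longest transcript replaced all exon bases, and the order changed only between Nrp1 and Vegfa in siRNA cells. The depth leaves Vegfc and Vegfd without a detectable difference.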
